A study of Mus musculus with 18 samples.

Results

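The inflammasome and pyroptosis genes described here are Nlrp3, Aim2, Nlrc4, Pycard, Casp1, Casp4, Gsdmd and Il18. They were taken by gene symbol from a table of 16474 mouse genes, in which all 8 were found and all 8 passed the filter on low values. The RNA came from macrophages grown from the bone marrow of C57BL/6 mice aged 8 weeks that were wild type (WT) or lacked the PI3-kinase gamma catalytic protein p110gamma (p110g-/-), the product of Pik3cg. For the first 6 days all marrow received M-CSF at 50 ng/ml to turn its precursors into macrophages. Every group, controls included, then stayed in 20 ng/ml M-CSF: the M-CSF groups had nothing else for 24 h, the IFNg/LPS groups also had interferon gamma and 100 ng/ml lipopolysaccharide for 24 h, and the IL-4 groups also had 20 ng/ml interleukin 4 for 48 h. There were 18 libraries, numbered 1 to 3 in each of the 6 combinations of genotype and stimulus. How the p110g-/- allele was made, and whether WT and p110g-/- mice were littermates, is not given in the sources used here.

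An inflammasome is a protein complex that macrophages assemble in the cytosol when they sense infection or damage. A sensor (Nlrp3 for disturbed ion balance, Aim2 for double-stranded DNA, Nlrc4 for bacterial flagellin and secretion-system parts presented by Naip proteins) recruits caspase 1, in most cases through the adaptor ASC, which Pycard encodes. Caspase 1 matures interleukin 18 and interleukin 1 beta and cuts gasdermin D (Gsdmd), whose released fragment makes the membrane pores of pyroptosis, a lytic cell death. Casp4, the mouse gene of caspase-11, senses cytosolic lipopolysaccharide directly and cuts gasdermin D as well. In macrophages the RNA of Nlrp3 and Casp4 is known to rise after lipopolysaccharide or interferon, a step called priming, while assembly and cleavage happen at the protein level and were not measured here.

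The promoter stretches below, the 250 bases before an annotated start site, are shown because the 2 genes with a match to an NF-kB consensus among the members, Nlrp3 and Casp4, can be read beside 2 members without one, Casp1 and Pycard. They are RefSeq sequences of build GRCm38.p6, 5′ to 3′ on the strand of the gene, with the bases that match the NF-kB consensus in capitals. Nlrp3 is shown for the first of its 2 listed starts, chr11:59541319-59541568 on the plus strand. Casp4 is shown for the first of its 2 listed starts, chr9:5308599-5308848 on the plus strand. Casp1 is at chr9:5298267-5298516 on the plus strand and Pycard at chr7:127993868-127994117 on the minus strand.
Nlrp3: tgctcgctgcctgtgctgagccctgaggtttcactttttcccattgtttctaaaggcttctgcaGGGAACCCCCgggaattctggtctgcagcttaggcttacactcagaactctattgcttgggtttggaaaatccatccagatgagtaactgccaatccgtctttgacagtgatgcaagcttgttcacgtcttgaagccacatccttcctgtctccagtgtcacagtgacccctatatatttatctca
Casp4: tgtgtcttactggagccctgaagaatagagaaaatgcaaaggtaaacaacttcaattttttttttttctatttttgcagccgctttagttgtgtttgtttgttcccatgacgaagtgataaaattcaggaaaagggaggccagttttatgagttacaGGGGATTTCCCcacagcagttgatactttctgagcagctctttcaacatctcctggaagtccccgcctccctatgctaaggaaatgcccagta
Casp1: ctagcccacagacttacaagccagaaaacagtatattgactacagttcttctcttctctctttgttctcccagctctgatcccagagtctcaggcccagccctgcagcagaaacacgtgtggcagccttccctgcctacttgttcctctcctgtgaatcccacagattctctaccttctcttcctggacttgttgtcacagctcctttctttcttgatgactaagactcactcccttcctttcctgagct
Pycard: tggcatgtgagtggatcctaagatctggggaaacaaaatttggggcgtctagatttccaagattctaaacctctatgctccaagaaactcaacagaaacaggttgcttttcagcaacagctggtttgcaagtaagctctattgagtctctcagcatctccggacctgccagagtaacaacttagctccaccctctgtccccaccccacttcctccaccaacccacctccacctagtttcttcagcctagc
The Nlrp3 match began 186 bases before the start, and the Casp4 stretch held 2 overlapping matches, which began 93 and 92 bases before it. RefSeq promoters were found for 7 of the 8 genes, Gsdmd being the exception. Besides the NF-kB consensus, found by name on both strands in 3.90% of all 32851 promoters, the same 250 bases were searched on both strands for TTC and GAA with any 3 bases between them (GAS, 7.02% of promoters) and for GAAA and a second GAAA with any 2 bases between them (ISRE, 2.98%), the core patterns of interferon response elements. None of the 7 genes held either of them there, and the second Nlrp3 start and Aim2, Nlrc4, Pycard, Casp1 and Il18 held no match to any of the 3 patterns. A match describes letters only, and a missing match says nothing about binding outside this window.

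Values are the authors' normalised signal, that is reads per gene after division by a library factor, and differences are on the log2(signal + 1) scale with standard errors (SE) and Benjamini-Hochberg adjusted p-values from limma fitted over 15627 genes, called at an adjusted p under 0.05. Libraries held 40.1 to 69.6 M (1e6) reads, and 3 reads correspond to a signal of 2.15 to 4.74, far below every member in every library. Nothing in the labels tells if same-group libraries stem from different mice or dishes, so p-values measure the spread between libraries, which may be technical. Macrophage markers were abundant throughout: the 8 listed markers present summed to 450218 to 1044320, led by Lyz2, and none was at or under 3 reads. The targeted gene Pik3cg had a signal of 5307.5, 5330.3 and 4993.5 in WT and 1887.5, 2045.8 and 1965.8 in p110g-/- M-CSF libraries, and of 3068.2, 2952.9 and 3280.5 against 955.6, 1083.3 and 964.8 in IL-4. In IFNg/LPS it was 3559.5, 2309.0 and 2604.2 in WT and 3691.4, 1410.5 and 2036.7 in p110g-/-. The library labelled p110g-/- IFNg/LPS number 1 therefore held more Pik3cg signal than all 3 WT libraries of that stimulus, which goes against its label, and genotype differences in IFNg/LPS are given with and without it. Between genotypes Pik3cg differed by -0.34 in IFNg/LPS and by -0.71 without that library, against -1.41 in M-CSF and -1.63 in IL-4. Leaving it out thus did not bring the Pik3cg difference to that of the other stimuli. Because the RNA is of whole cultures, fewer cells of a type and less RNA per cell cannot be told apart.

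In the fit of all 18 libraries, 5 of the 8 genes were lower in p110g-/- under IFNg/LPS, where 7.79% of all tested genes were called lower, and 0 in a fit of the 6 IFNg/LPS libraries alone. None was called between genotypes in M-CSF (2.34% of all tested genes) or in IL-4 (3.33%). IFNg/LPS raised the RNA of both caspases, gasdermin D, Il18 and 2 of the 3 sensors in both genotypes. It lowered the RNA of the adaptor gene Pycard. In the IL-4 libraries, taken at 48 h against 24 h for M-CSF, Nlrp3, Il18, Nlrc4 and Casp4 were lower and Pycard and Gsdmd higher. The Casp4 calls in IL-4, and that of Pycard in p110g-/-, depended on single libraries. In M-CSF, WT signal per kilobase of transcript was highest for Casp1 at 4097, followed by Gsdmd at 2318, Casp4 at 937, Aim2 at 559, Nlrp3 at 533, Il18 at 418 and Nlrc4 at 201. Under IFNg/LPS in WT the order per kilobase was Casp1 at 29097, Casp4 at 13670, Gsdmd at 8560, Nlrp3 at 2228, Aim2 at 1649, Il18 at 1173 and Nlrc4 at 316. In IL-4 in WT it was Casp1 at 4445, Gsdmd at 3049, Casp4 at 635, Aim2 at 584, Il18 at 152, Nlrc4 at 136 and Nlrp3 at 119. Casp1 led per kilobase in all 3, and Nlrp3 moved from the fifth place in M-CSF to the last in IL-4. Pycard has no value per kilobase, because its annotated coding transcripts run from 493 to 3800 bases and the table does not say which was counted. The other genes were divided by the longest transcript annotated as principal. Coding transcripts vary among them too, from 326 to 2839 bases for Aim2 and from 676 to 4021 for Nlrp3. Their order per kilobase rests on that choice of length.

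**Figure D1:**
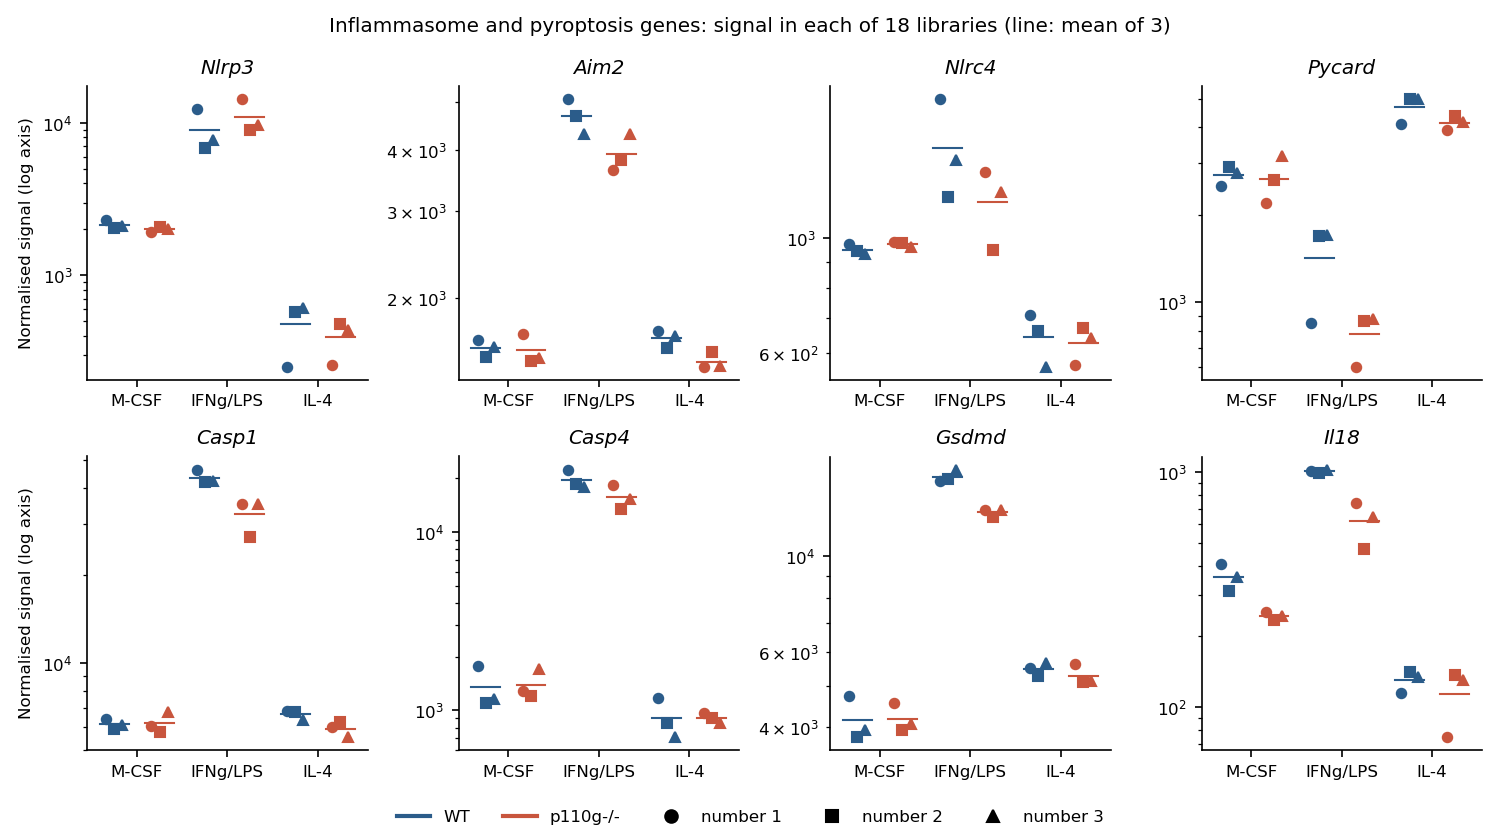
Signal of the 8 inflammasome and pyroptosis genes in each of the 18 libraries, 1 panel per gene with a log axis of normalised signal and the 6 groups of genotype and stimulus along the other axis; points are libraries, their shapes the library numbers, and lines are group means. Casp1, Casp4, Gsdmd, Aim2 and Il18 stand highest in IFNg/LPS, Pycard stands lowest there, and Nlrp3 spans 252.6 in a WT IL-4 library to 14215.6 in the library labelled p110g-/- IFNg/LPS number 1.

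Of the sensors, Nlrp3 covered the widest range. In M-CSF its signal was 2295.4, 2040.1 and 2093.5 in WT and 1933.5, 2070.9 and 2019.0 in p110g-/- libraries. Under IFNg/LPS it was 12290.5, 6832.8 and 7754.2 in WT and 14215.6, 9006.6 and 9591.8 in p110g-/-. In IL-4 it was 252.6, 577.3 and 610.2 in WT and 259.7, 483.5 and 435.3 in p110g-/-. The stimuli did not overlap: every IFNg/LPS library was above every M-CSF library, and every IL-4 library was below, while the genotypes overlapped under each stimulus. Library number 1 stood apart in both stimulated conditions, above numbers 2 and 3 by 0.76 (WT) and 0.61 (p110g-/-) on the log2 scale under IFNg/LPS, and at -1.23 and -0.82 relative to them in IL-4. Nlrp3 rose under IFNg/LPS by 2.02 (SE 0.31, adjusted p = 2.3e-05, limma) in WT and by 2.42 (SE 0.31, adjusted p = 3.3e-06) in p110g-/-. In IL-4 it fell by 2.26 (SE 0.31, adjusted p = 3.4e-05, limma) in WT and fell by 2.40 (SE 0.31, adjusted p = 1.7e-05) in p110g-/-. The IL-4 libraries were taken at 48 h and the M-CSF libraries at 24 h, so for this and every other IL-4 difference stimulus and time cannot be told apart.

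Aim2, the sensor of cytosolic DNA, rose under IFNg/LPS and did not pass in IL-4. M-CSF libraries had a signal of 1647.0, 1523.7 and 1590.2 in WT and 1696.7, 1492.8 and 1516.4 in p110g-/-. With IFNg/LPS it reached 5062.4, 4678.7 and 4301.9 in WT and 3639.1, 3821.3 and 4296.5 in p110g-/-. With IL-4 it measured 1713.3, 1585.9 and 1678.3 in WT and 1454.2, 1557.2 and 1455.0 in p110g-/-. All 6 IFNg/LPS libraries stood above the other 12, and under that stimulus the highest p110g-/- library, at 4296.5, was just under the lowest WT library, at 4301.9. Aim2 rose under IFNg/LPS by 1.56 (SE 0.076, adjusted p = 5.2e-11, limma) in WT and by 1.32 (SE 0.076, adjusted p = 3.3e-10) in p110g-/-. In IL-4 the difference was 0.06 (95% interval -0.10 to 0.22, adjusted p = 0.52, limma) in WT and -0.07 (-0.23 to 0.09, adjusted p = 0.46) in p110g-/-.

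Nlrc4, which answers to flagellin through Naip proteins, was the lowest sensor per kilobase in M-CSF and IFNg/LPS and had the smallest difference under IFNg/LPS. In M-CSF its signal was 974.1, 944.5 and 934.2 in WT and 985.1, 978.1 and 960.6 in p110g-/-. After IFNg/LPS it stood at 1858.7, 1201.7 and 1419.8 in WT and 1343.3, 951.1 and 1230.8 in p110g-/-. After IL-4 it stood at 709.5, 660.2 and 564.5 in WT and 569.6, 670.6 and 641.4 in p110g-/-. All IL-4 libraries were below all M-CSF libraries. The WT IFNg/LPS libraries were above M-CSF without overlap, whereas p110g-/- IFNg/LPS number 2 lay below all 3 p110g-/- M-CSF libraries. Nlrc4 rose under IFNg/LPS in WT by 0.63 (SE 0.14, adjusted p = 0.00096, limma). In p110g-/- the difference of 0.25 (95% interval -0.05 to 0.56) missed the threshold (adjusted p = 0.12, limma) and passed it without p110g-/- IFNg/LPS number 2, at 0.40 (adjusted p = 0.020). In IL-4 it fell by 0.57 (SE 0.14, adjusted p = 0.0048, limma) in WT and fell by 0.64 (SE 0.14, adjusted p = 0.0020) in p110g-/-.

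Pycard, the gene of the adaptor ASC that bridges sensors and caspase 1, was the 1 member that fell under IFNg/LPS, and it rose in IL-4. In M-CSF its signal was 2507.4, 2919.9 and 2780.9 in WT and 2188.6, 2621.7 and 3165.9 in p110g-/-. Under IFNg/LPS it was 850.4, 1689.1 and 1704.0 in WT and 602.4, 863.7 and 874.1 in p110g-/-. In IL-4 it was 4077.7, 4970.9 and 4968.2 in WT and 3887.8, 4347.9 and 4171.9 in p110g-/-. The stimuli did not overlap within either genotype. WT IFNg/LPS number 1 was near its p110g-/- counterparts, lying 1.00 below the mean of WT numbers 2 and 3 on the log2 scale. Under IFNg/LPS Pycard fell by 1.02 (SE 0.22, adjusted p = 0.00062, limma) in WT and fell by 1.77 (SE 0.22, adjusted p = 2.5e-06) in p110g-/-. It rose in IL-4 by 0.77 (SE 0.22, adjusted p = 0.010, limma) in WT and by 0.65 (SE 0.22, adjusted p = 0.026) in p110g-/-. The rise in p110g-/- missed the threshold when any 1 of p110g-/- IL-4 numbers 2 and 3 or p110g-/- M-CSF numbers 1 and 2 was left out (0.52 to 0.65, adjusted p 0.057 to 0.11, limma).

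Casp1, the protease at the centre of the canonical inflammasome, led the 7 genes measured per kilobase under all 3 stimuli. In M-CSF its signal was 6389.1, 5907.0 and 6103.0 in WT and 6025.7, 5783.3 and 6745.0 in p110g-/-. With IFNg/LPS it reached 46311.3, 42092.9 and 42272.3 in WT and 35311.6, 27217.4 and 35301.5 in p110g-/-. With IL-4 it measured 6836.7, 6761.7 and 6364.3 in WT and 6006.4, 6215.2 and 5535.8 in p110g-/-. The IFNg/LPS groups stood apart from the others and from each other, and M-CSF and IL-4 libraries overlapped. Casp1 rose under IFNg/LPS by 2.83 (SE 0.093, adjusted p = 9.0e-13, limma) in WT and by 2.39 (SE 0.093, adjusted p = 5.1e-12) in p110g-/-. In IL-4 the differences were 0.12 (95% interval -0.08 to 0.32, adjusted p = 0.33, limma) and -0.06 (-0.26 to 0.14, adjusted p = 0.62).

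Casp4 had the largest response to IFNg/LPS of the 8 genes. In M-CSF its signal was 1776.8, 1100.0 and 1155.0 in WT and 1280.5, 1198.8 and 1697.0 in p110g-/-. After IFNg/LPS it stood at 22360.6, 18657.1 and 17833.1 in WT and 18275.7, 13424.1 and 15249.6 in p110g-/-. After IL-4 it stood at 1175.7, 849.4 and 707.4 in WT and 970.7, 899.2 and 844.4 in p110g-/-. Every IFNg/LPS library exceeded every other library, the genotypes overlapped under each stimulus, and in WT the M-CSF and IL-4 libraries overlapped too. Casp4 rose under IFNg/LPS by 3.89 (SE 0.20, adjusted p = 1.0e-10, limma) in WT and by 3.50 (SE 0.20, adjusted p = 3.3e-10) in p110g-/-. In IL-4 it fell by 0.56 (SE 0.20, adjusted p = 0.034, limma) in WT and fell by 0.61 (SE 0.20, adjusted p = 0.023) in p110g-/-. Both IL-4 calls depended on single libraries. In WT the call was lost without M-CSF number 1 or IL-4 number 2 or 3 (differences of -0.34 to -0.52) and in a fit of the compared groups alone (adjusted p = 0.11, limma). In p110g-/- it was lost without M-CSF number 3 or IL-4 number 2 or 3 (-0.46 to -0.60). Casp1, Casp4 and Casp12 are direct neighbours on chromosome 9 and related in sequence, and how reads shared between such genes were counted is not given in the sources used here, so their split is uncertain. The same holds for Aim2, which belongs to a family of similar neighbouring genes.

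Of the substrates, Gsdmd, the pore-forming protein, rose with IFNg/LPS and less with IL-4. In M-CSF its signal was 4729.0, 3797.0 and 3933.7 in WT and 4550.9, 3941.9 and 4067.6 in p110g-/-. Under IFNg/LPS it was 14959.7, 15151.1 and 15906.4 in WT and 12820.0, 12331.6 and 12817.3 in p110g-/-. In IL-4 it was 5487.4, 5267.9 and 5638.2 in WT and 5608.9, 5099.9 and 5129.0 in p110g-/-. No library of 1 stimulus overlapped another stimulus, and only under IFNg/LPS were the genotypes apart. Gsdmd rose under IFNg/LPS by 1.89 (SE 0.078, adjusted p = 9.1e-12, limma) in WT and by 1.60 (SE 0.078, adjusted p = 5.7e-11) in p110g-/-. In IL-4 it rose by 0.40 (SE 0.078, adjusted p = 0.00072, limma) and by 0.34 (SE 0.078, adjusted p = 0.0027).

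Il18, the gene of the cytokine that caspase 1 matures, was lowest in IL-4. M-CSF libraries had a signal of 408.7, 311.9 and 358.3 in WT and 252.9, 233.9 and 244.2 in p110g-/-. With IFNg/LPS it reached 1012.8, 989.7 and 1023.4 in WT and 740.8, 471.7 and 647.1 in p110g-/-. With IL-4 it measured 115.2, 141.8 and 134.7 in WT and 74.6, 136.6 and 130.4 in p110g-/-. Ordered by mean, WT IFNg/LPS, p110g-/- IFNg/LPS, WT M-CSF, p110g-/- M-CSF and the 2 IL-4 groups followed each other, and only the 2 IL-4 groups overlapped. Il18 rose under IFNg/LPS by 1.49 (SE 0.20, adjusted p = 5.2e-06, limma) in WT and by 1.32 (SE 0.20, adjusted p = 2.0e-05) in p110g-/-. In IL-4 it fell by 1.45 (SE 0.20, adjusted p = 3.5e-05, limma) in WT and fell by 1.14 (SE 0.20, adjusted p = 0.00027) in p110g-/-.

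Counted together, IFNg/LPS in WT raised 7 of the 8 genes and lowered 1, Pycard, where 36.3% of all tested genes were called higher and 37.5% lower. In p110g-/- it raised 6 and lowered 1, against 36.2% and 36.8% of all tested genes. Without the library labelled p110g-/- IFNg/LPS number 1, 7 of 8 were again called, with Nlrp3 at 2.21, Pycard at -1.60 and Casp4 at 3.38. With so many genes called, a call alone is common. The median member difference was 1.72 in WT and 1.46 in p110g-/-, beside -0.01 in both genotypes over all tested genes. IL-4 raised 2 of 8 (22.9% of all tested genes in WT, 22.7% in p110g-/-) and lowered 4 (21.1% and 21.2%) in each genotype. The 2 that rose were Pycard and Gsdmd, the 4 that fell were Nlrp3, Il18, Nlrc4 and Casp4, and Casp1 and Aim2 passed in neither genotype. The median member difference in IL-4 was -0.25 in WT and -0.34 in p110g-/-, beside 0.003 and -0.010 over all tested genes. The responses to both stimuli share the M-CSF libraries and were not compared with each other. Markers of other cells that marrow cultures can hold moved as well: the 8 neutrophil markers summed to 6670 to 32170 in WT M-CSF and 2131 to 3279 in WT IFNg/LPS libraries, and the 5 fibroblast markers to 370.1 to 2420.5 and 232.2 to 285.0. The 7 dendritic cell markers, led by Ccr7, summed to 291.7 to 341.1 in WT M-CSF and 1592 to 4963 in WT IFNg/LPS, and the 4 T and NK cell markers present to 90.9 to 119.2 and 191.1 to 273.6. Most of the latter sum in WT IFNg/LPS was Lck, at a mean of 154.9, while the highest of the 4 in WT M-CSF was Cd8a, at 50.2. The macrophage markers summed to 883966 to 1044320 in WT M-CSF, 643541 to 706599 in WT IFNg/LPS and 501406 to 553576 in WT IL-4. In WT IL-4 the neutrophil markers summed to 4625 to 21727, the dendritic cell markers to 209.6 to 307.5 and the 4 mast cell and basophil markers present to 332.6 to 578.5, against 162.5 to 285.7 in WT M-CSF. The part of these markers in the responses was not tested.

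**Figure D2:**
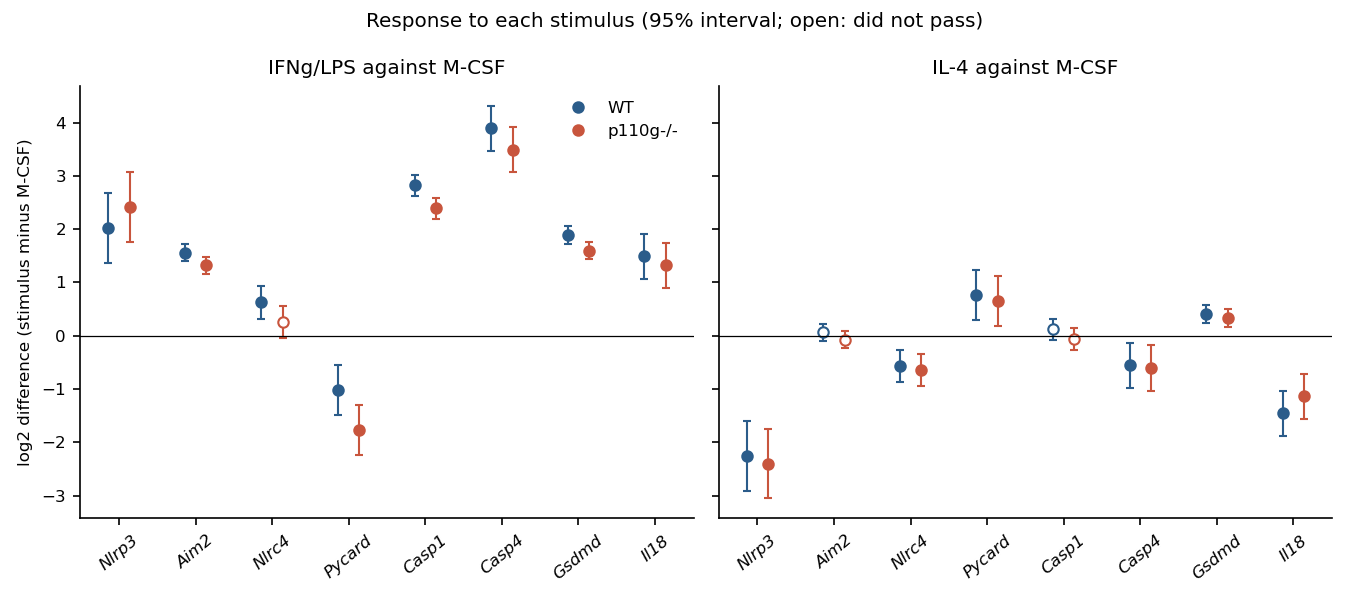
Response of the 8 genes to IFNg/LPS and to IL-4 against M-CSF, as log2 differences of signal + 1 with 95% intervals from limma, for WT and p110g-/-; filled points passed an adjusted p of 0.05 and open ones did not. Casp4 lies farthest to the positive side under IFNg/LPS, at 3.89 in WT and 3.50 in p110g-/-, and Nlrp3 farthest to the negative side in IL-4, at -2.26 and -2.40.

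Between genotypes under IFNg/LPS, 5 of the 8 genes were lower in p110g-/- and 0 were higher, where 7.79% of all tested genes were called lower and 6.94% higher. By role these were the sensor Aim2, the adaptor Pycard, the protease Casp1 and both substrates, Gsdmd and Il18. Pycard fell by 0.81 (SE 0.22, adjusted p = 0.023, limma), from a mean signal of 1414.5 ± 488.6 in WT to 780.1 ± 154.0 in p110g-/- (SD, n = 3). Il18 fell by 0.73 (SE 0.20, adjusted p = 0.023, limma), from 1008.6 ± 17.2 to 619.9 ± 136.6. Casp1 fell by 0.43 (SE 0.093, adjusted p = 0.0064, limma), from 43558.8 ± 2385.4 to 32610.2 ± 4670.3. The groups were apart for Il18 and Casp1 and overlapped for Pycard, whose WT number 1 fell among the p110g-/- libraries. Gsdmd fell by 0.28 (SE 0.078, adjusted p = 0.027, limma), from 15339.1 ± 500.6 to 12656.3 ± 281.2. Aim2 fell by 0.26 (SE 0.076, adjusted p = 0.032, limma), from 4681.0 ± 380.3 to 3919.0 ± 339.4. Both were lower in all 3 p110g-/- libraries than in any WT library, so that 4 of the 8 genes were lower without overlap, where 14.8% of all tested genes were.

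The remaining 3 genes did not pass under IFNg/LPS. Nlrc4 differed by -0.34 (95% interval -0.64 to -0.03, adjusted p = 0.13, limma), and by -0.48 (adjusted p = 0.045) without WT IFNg/LPS number 2. Casp4 differed by -0.33 (-0.76 to 0.10, adjusted p = 0.30, limma), an interval that holds differences as large as those of Casp1 or Il18. Nlrp3 had a positive value, 0.31 (-0.35 to 0.96, adjusted p = 0.56, limma). The median of the 8 differences was -0.33, beside 0.0006 over all tested genes.

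Libraries with the same number were also set against each other under IFNg/LPS. Pycard differed by -0.50, -0.97 and -0.96 in numbers 1, 2 and 3, Il18 by -0.45, -1.07 and -0.66, and Casp1 by -0.39, -0.63 and -0.26. Gsdmd differed by -0.22, -0.30 and -0.31, and Aim2 by -0.48, -0.29 and -0.00, a difference that number 3 hardly showed. Casp4 was lower in all 3 numbers too, at -0.29, -0.47 and -0.23, as was Nlrc4, at -0.47, -0.34 and -0.21. Nlrp3 was higher in p110g-/- in all 3, by 0.21, 0.40 and 0.31. How many of all tested genes were lower or higher in all 3 numbers was not counted. These signs are therefore no support for the genes that did not pass the test. Number 1 also includes the library labelled p110g-/- IFNg/LPS number 1, whose Pik3cg signal goes against its label.

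**Figure D3:**
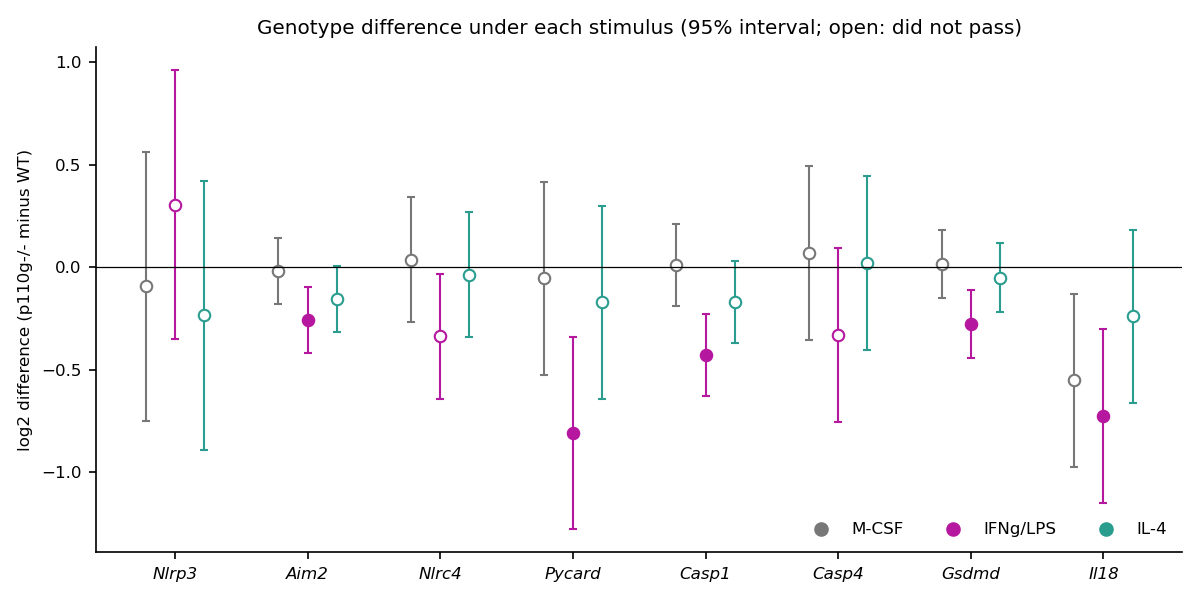
Log2 difference of p110g-/- against WT for each of the 8 genes in M-CSF, IFNg/LPS and IL-4, with 95% intervals from limma; the horizontal line marks 0 and filled points passed an adjusted p of 0.05. The 5 genes called lower under IFNg/LPS lie between -0.81 (Pycard) and -0.26 (Aim2), and no interval of M-CSF or IL-4 belongs to a called difference.

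**Figure D4:**
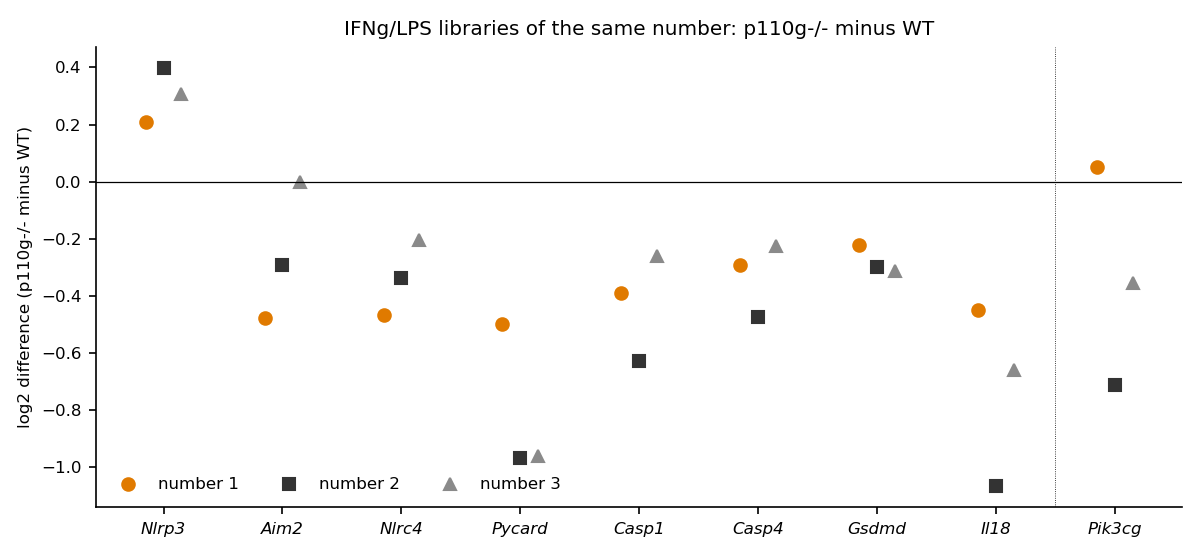
Log2 difference of p110g-/- against WT under IFNg/LPS between libraries that carry the same number, 1 point per number for each of the 8 genes and for Pik3cg. Nlrp3 lies above 0 in all 3 numbers, the other 7 genes lie at or below it, and Pik3cg lies at 0.05, -0.71 and -0.35, the library labelled p110g-/- IFNg/LPS number 1 having 3691.4 against 3559.5 in WT number 1.

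The count of 5 moved with the libraries. Without the library labelled p110g-/- IFNg/LPS number 1 it was 3, with Pycard at -0.63 (adjusted p = 0.079, limma) and Aim2 at -0.20 (adjusted p = 0.10) past the threshold no longer. Without that library the other 3 remained called, Il18 at -0.87 (adjusted p = 0.013, limma), Casp1 at -0.49 (adjusted p = 0.0047) and Gsdmd at -0.29 (adjusted p = 0.041). Among the uncalled genes Nlrc4 was then at -0.44, Casp4 at -0.45 and Nlrp3 at 0.10. With numbers 2 and 3 only, 4 genes were lower and Nlrp3 was higher, at 0.35 (adjusted p = 0.0047, limma), while Aim2 was at -0.15 (adjusted p = 0.16). That fit, with 2 libraries per group, called 2207 of the 15627 tested genes lower and 1959 higher. Leaving out p110g-/- number 2, WT number 2 or WT number 3 gave a count of 2 in each case, and leaving out WT number 1 or p110g-/- number 3 gave 4. Casp1 was among those called each time. It was joined by Pycard without p110g-/- number 2, by Aim2 without WT number 3, and by Nlrc4, which is not among the 5, without WT number 2. Calls over all tested genes moved too: 1218 were lower in the fit of all 18 libraries. Without p110g-/- number 2, WT number 2 or WT number 3 there were 798, 818 and 882. Without p110g-/- number 1, WT number 1 or p110g-/- number 3 there were 1241, 1571 and 1044. A fit of the 6 IFNg/LPS libraries alone, with their spread estimated from them only, called 0 of the 8 after adjustment. Adjusted p (limma) ran from 0.057 for Il18 to 0.18 for Aim2 among the 5 genes. That fit called 425 of the 15627 tested genes lower and 283 higher. The count of members was again 5 with edgeR and with DESeq2 on recovered reads, where 1124 and 1452 of all tested genes were called lower.

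Other markers differed between the same libraries. The 7 dendritic cell markers summed to 1592 to 4963 in WT and 7930 to 20770 in p110g-/- IFNg/LPS libraries. Most of this was Ccr7, at 979.1 to 3925.6 and 7189.7 to 19983, and the other 6 summed to 612.8 to 1037.8 and 718.5 to 787.4, with Cd209a at or under 3 reads in every library of both groups. The 8 neutrophil markers summed to 2131 to 3279 in WT and 1041 to 1915 in p110g-/-, with Elane at or under 3 reads, and the 4 mast cell and basophil markers present to 42.0 to 59.1 and 10.3 to 35.0. Mast cell and basophil sums were lower in p110g-/- M-CSF libraries too, at 61.2 to 123.6 against 162.5 to 285.7 in WT. In IL-4 they were 109.8 to 149.0 against 332.6 to 578.5. The neutrophil sums of the genotypes overlapped in M-CSF and in IL-4. The part of these markers in the genotype differences was not tested.

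In M-CSF 0 of the 8 genes passed between genotypes with limma, where 2.34% of all tested genes did, and 0 with edgeR or DESeq2. An unadjusted p under 0.05 was found for 2057 of the 15627 tested genes and for 1 of the 8. It was Il18, at -0.55 (95% interval -0.97 to -0.13, adjusted p = 0.21, limma). Its 3 p110g-/- libraries were all below the 3 WT libraries, as was so for 10.9% of all tested genes. The other 7 lay between -0.09 (Nlrp3, -0.75 to 0.56) and 0.07 (Casp4, -0.36 to 0.49). For Casp1 the interval was -0.19 to 0.21 and for Gsdmd -0.15 to 0.18, the narrowest together with that of Aim2, -0.18 to 0.14. In IL-4 0 of 8 passed with limma, edgeR or DESeq2, where 3.33% of all tested genes did with limma, and 0 had an unadjusted p under 0.05. Differences there ran from -0.24 for Il18 (-0.66 to 0.18) to 0.02 for Casp4 (-0.41 to 0.45). Aim2, at -0.16 (-0.32 to 0.00), and Casp1, at -0.17 (-0.37 to 0.03), were lower in p110g-/- IL-4 without overlap of the groups, where 11.4% of all tested genes were. With the libraries numbered 2 and 3 only, Nlrp3 was lower in p110g-/- IL-4, at -0.37 (adjusted p = 0.0059, limma). That fit called 1306 of the 15627 tested genes lower.

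Whether the genotype difference under IFNg/LPS was itself different from that in M-CSF was tested as an interaction. None of the 8 passed (limma), where 2.44% of all tested genes did. An unadjusted p under 0.05 was found for 2714 of the 15627 tested genes and for 4 of the 8. These were Casp1 at -0.44 (95% interval -0.72 to -0.16, adjusted p = 0.095, limma), Pycard at -0.75 (-1.42 to -0.09, adjusted p = 0.22), Gsdmd at -0.29 (-0.53 to -0.06, adjusted p = 0.18) and Aim2 at -0.24 (-0.47 to -0.01, adjusted p = 0.26). For Il18, whose difference in M-CSF was -0.55 and did not pass, the interaction was -0.17 (-0.77 to 0.42, adjusted p = 0.81). DESeq2 called Casp1 (-0.43, adjusted p = 0.037), limma with the library number as a block called Pycard (-0.75, adjusted p = 0.049), and edgeR called 0. With numbers 2 and 3 only, limma called Pycard at -0.98 (adjusted p = 0.00024), Gsdmd at -0.36 (adjusted p = 0.017) and Nlrp3 at 0.37 (adjusted p = 0.045). That fit called 953 of the 15627 tested genes lower and 755 higher. With each of 12 libraries left out in turn, p110g-/- IFNg/LPS number 1 among them, 0 to 1 of the 8 were called. Over all tested genes 183 to 633 were. The interaction then ranged from -0.50 to -0.31 for Casp1, -1.09 to -0.58 for Pycard, -0.39 to -0.23 for Gsdmd and -0.31 to -0.18 for Aim2. So the lower signal of 5 genes under IFNg/LPS was not shown to be limited to that stimulus. The interaction with IL-4 was called for 0 of the 8 with limma, edgeR and DESeq2, 0 at an unadjusted p under 0.05, and limma called 0% of all tested genes.

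Across all 18 libraries the members fell into 2 directions. The Pearson correlation of log2(signal + 1) was 0.993 between Casp1 and Aim2, 0.985 between Casp1 and Casp4 and 0.975 between Casp1 and Gsdmd, and 0.954 between Nlrp3 and Il18. Pycard was negatively correlated with the other 7, from -0.77 with Gsdmd to -0.92 with Nlrp3. The points are 18 libraries of 6 groups and share the stimuli, so these values describe the pattern over groups. The genes outside the set with the most similar pattern over the same 18 libraries were Agfg1 (r = 0.997) and Slfn4 (0.997) for Casp1, and Slfn4 (0.993) and Slc25a22 (0.993) for Aim2. For Casp4 they were LOC100041877 (0.997) and Herc6 (0.997), for Gsdmd Ccdc25 (0.994) and Tank (0.994), and for Nlrp3 Khnyn (0.991) and Marcksl1 (0.986). For Il18 they were Nmrk1 (0.980) and Cp (0.980), for Nlrc4 Spic (0.972) and Pdzd8 (0.969), and for Pycard Fcrls (0.988) and Lgals1 (0.985).

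The wider pathway was read from a list of 41 other genes, of which 38 were in the table and 37 were tested. Under IFNg/LPS in WT 26 of the 37 rose and 8 fell, where 36.3% of all tested genes rose and 37.5% fell. Of the 8 other caspases and death kinases 7 rose and 0 fell, among them Mlkl, the effector of necroptosis, by 4.39 (SE 0.14, adjusted p = 8.3e-13, limma). Of the 12 regulators and triggers 8 rose and 2 fell: the guanylate-binding protein genes Gbp2 and Gbp5, whose products act on bacterial membranes and in inflammasome assembly, rose by 8.17 and 8.48, and Nek7, the kinase that binds NLRP3, fell by 0.87, and P2rx7, the ATP-gated channel that triggers NLRP3, fell by 1.02. Of the 10 other sensors 6 rose and 4 fell, with Nlrp1c-ps, a pseudogene, at -2.04. A last group of 5 held interleukin 1 family substrates, antagonists and Hmgb1, an alarmin outside that family. Of these 4 rose, among them Il1rn, the receptor antagonist, by 7.78, and Hmgb1 fell by 1.17. In p110g-/- 24 rose and 8 fell (36.2% and 36.8% of all tested genes), with Gbp2 at 8.02, Gbp5 at 8.84, Mlkl at 4.45 and Il1rn at 7.20 on the higher side and P2rx7 at -1.47, Nlrp1c-ps at -2.72, Nlrp1b at -1.87 and Hmgb1 at -1.07 on the lower. Gbp genes belong to a family of related genes, and how shared reads were counted is not given, so their values are uncertain in that respect.

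**Figure D5:**
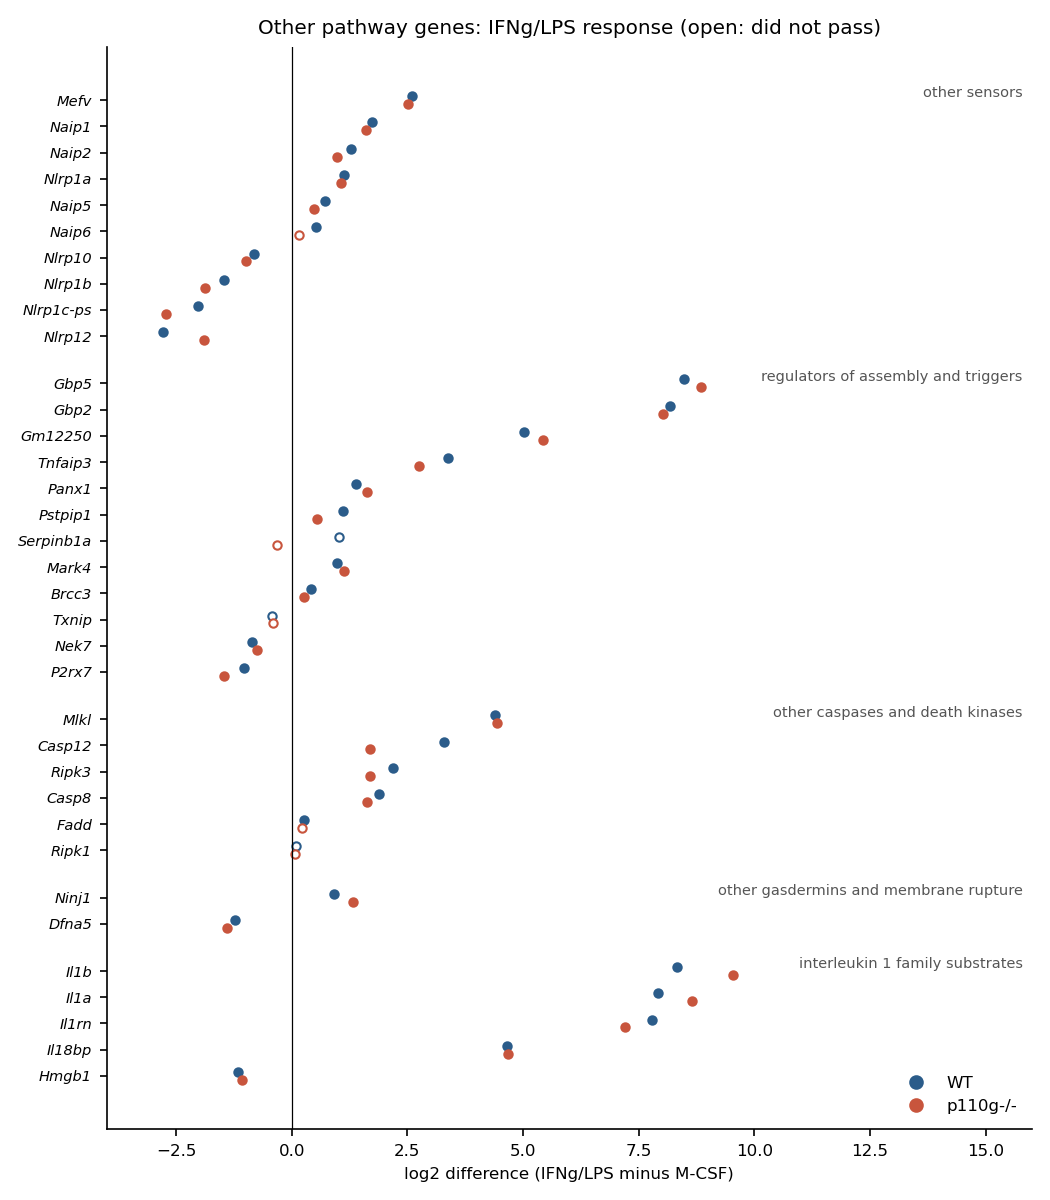
Log2 difference of IFNg/LPS against M-CSF for 35 of the tested pathway genes outside the 8, grouped by role, in WT and p110g-/-; filled points passed an adjusted p of 0.05 and open ones did not. In WT 24 called genes of those drawn lie to the positive side, led by Gbp5 at 8.48, and 8 to the negative side.

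In IL-4, 7 of the 37 pathway genes rose and 13 fell in WT, where 22.9% of all tested genes rose and 21.1% fell. In p110g-/- 7 rose and 15 fell, where 22.7% and 21.2% did. The necroptosis kinase gene Ripk3 rose by 1.51 in WT and by 1.49 in p110g-/-, Gbp2 by 1.37 and 1.74, and Nlrp10 by 1.35 and 1.43. Ninj1, whose product ruptures the membrane at the end of pyroptosis, fell by 1.33 in WT and fell by 1.46 in p110g-/-. In WT Gbp5 fell by 1.39, opposite to Gbp2. In WT Nlrp1b fell by 1.17 and Nlrp1c-ps fell by 1.37. In p110g-/- Il1rn fell by 1.86, P2rx7 fell by 0.58, and Il1b, the gene of interleukin 1 beta, fell to a mean signal of 4.33, near that of 3 reads.

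Between genotypes under IFNg/LPS, 0 pathway genes were higher and 6 of 37 lower in p110g-/-, where 6.94% of all tested genes were called higher and 7.79% lower. Called or not, 25 of the 37 differences were negative and 12 positive. The highest, 1.69, lay in the group of interleukin 1 family substrates and antagonists and did not pass. Nlrp1c-ps was at -0.94 (adjusted p = 0.0055, limma), Nlrp1b, a sensor of bacterial proteases, at -0.65 (adjusted p = 0.011), Il1rn at -1.06 (adjusted p = 0.016) and Casp12 at -1.18 (adjusted p = 0.028). Casp12, the neighbour of Casp4, had a signal of 345.5, 243.7 and 240.0 in WT and 154.7, 77.8 and 143.2 in p110g-/- libraries, without overlap. Without the library labelled p110g-/- IFNg/LPS number 1, 8 pathway genes were lower, where 1241 of the 15627 tested genes were. Nlrp1c-ps was then at -1.13 (adjusted p = 0.0018, limma), Nlrp1b at -0.67 (adjusted p = 0.021), Il1rn at -1.02 (adjusted p = 0.038) and Casp12 at -1.36 (adjusted p = 0.022). The count of pathway genes fell to 2 without p110g-/- number 2 and to 3 without WT number 2. In these fits 798 and 818 of the 15627 tested genes were called lower. With numbers 2 and 3 only, 11 pathway genes were lower and 2 higher, where 2207 and 1959 of the 15627 tested genes were. In M-CSF 0 of the 37 passed with limma. An unadjusted p under 0.05 was found for 3 of them and for 2057 of the 15627 tested genes. In IL-4 the 1 called gene was Il1rn, at -1.99 (adjusted p = 0.00044, limma). Both interactions called 0 of the 37 with limma and edgeR, and DESeq2 called 1 in each. With limma 6 of the 37 had an unadjusted p under 0.05 in each. Of the 15627 tested genes, 2714 had one in the IFNg/LPS interaction and 1156 in the IL-4 interaction.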

How the data were processed

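RNA sequencing of 18 libraries of mouse bone marrow derived macrophages was read from 1 table of values that the authors deposited. Per the submitters' processing notes, CASAVA 1.8.2, Bowtie2, DESeq and build mm9 were used. The counting method, the treatment of shared reads and the use of strand are not given in the sources used here. The deposited values are normalised signal: read counts divided by 1 factor per library. This reading rests on the values, since 100% were whole multiples of 1 step per library to within 0.1, and these recovered reads entered edgeR 4.0.16 and DESeq2 1.42.0 as alternatives.

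Values were analysed as log2(signal + 1) with limma 3.58.1 in R 4.3.3 (6 group means, 18 libraries, 12 residual degrees of freedom, trend and robust moderation) over the 15627 genes that reached a signal of 10 in 3 or more libraries. P-values were Benjamini-Hochberg adjusted within each comparison and called under 0.05. The script was tested on simulated data. Same-numbered libraries correlated above 0.1 in deviations from their group means for the genotype comparison in IFNg/LPS (0.546, 0.34 and 0.256), IFNg/LPS in WT (0.256, 0.191 and 0.162), IL-4 in WT (0.458, 0.347 and 0.179) and IL-4 in p110g-/- (0.397, 0.248 and 0.187), and not in the other comparisons, where at least 1 number was under it.

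The members, gene lists and alternatives were chosen with earlier results of these data known. All 8 genes are named in each comparison, with up to 4 pathway genes per comparison and direction by smallest p (2 pathway genes enter the counts but are not reported here by name), the 2 genes most correlated with each member at a mean of at least 50, and Pik3cg. Promoters are from RefSeq (GRCm38.p6), and transcript lengths from GENCODE vM21; no coordinate was converted to mm9. The IFNg dose is left out because its unit is misprinted in the labels.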

Additional observations from a re-analysis of the deposited data

How the results depend on the processing

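Each comparison was repeated with edgeR, DESeq2, no filter, a pseudocount of 5, TMM scaling, no trend or robust moderation, the compared groups only, the libraries numbered 2 and 3 only, a replicate block, and each library left out in turn. Counts of the 8 genes called did not move by over 1.5 times for the 4 stimulus responses or for the genotype comparison in M-CSF. For the genotype comparison in IFNg/LPS (5 of 8) the count was 0 with the compared groups only and 2 to 4 with a library left out. For the IFNg/LPS interaction (0 of 8) it was 1 with DESeq2, 3 with numbers 2 and 3, and 0 to 1 with a library left out. For the genotype comparison in IL-4 (0 of 8) it was 1 with numbers 2 and 3. The cause was not tested.

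With the replicate block, which pairs libraries by number, the 8 genes' calls changed for 1 interaction only: Pycard in IFNg/LPS, -0.75 (adjusted p = 0.049, limma), so that 1 of 8 was called. For all genes the block gave 716 for the IFNg/LPS interaction (381 without it), 8 for the IL-4 interaction (0) and 555 for the genotype comparison in M-CSF (365), and for pathway genes 4 in IL-4 (1) and 1 in M-CSF (0).

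Counts over all genes that moved were as follows. For the IFNg/LPS interaction (381) they were 869 with DESeq2, 211 with the compared groups only, 1708 with numbers 2 and 3, and 183 to 633 with a library left out. For the IL-4 interaction (0) they were 64 with DESeq2, 385 with numbers 2 and 3, 7 with a pseudocount of 5, 2 without trend and robust moderation, and 0 to 89 with a library left out. For the genotype comparison they were 708, 4166 and 1466 to 2728 in IFNg/LPS (2303) with the compared groups only, numbers 2 and 3, and a library left out. They were 921, 2285 and 239 to 727 in IL-4 (520), and 679, 688 and 239 to 336 in M-CSF (365), with DESeq2, numbers 2 and 3, and a library left out.

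Pathway genes called in the IFNg/LPS interaction (0) were 1 with DESeq2, 6 with numbers 2 and 3, and 0 to 1 with a library left out, and in the IL-4 interaction (0) 1 with DESeq2 and 2 with numbers 2 and 3. In the genotype comparison they were 13 in IFNg/LPS (6) with numbers 2 and 3, and 2 to 8 with a library left out. In IL-4 (1) they were 2 with DESeq2, 2 with the compared groups only, 8 with numbers 2 and 3, and 1 to 3 with a library left out. In M-CSF (0) they were 1, 2 and 0 to 1 under the last 3 of these.

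The sign turned only in differences that had not passed. With a library left out, p110g-/- against WT in M-CSF ranged from -0.076 to 0.016 for Aim2, -0.054 to 0.057 for Casp1, -0.082 to 0.29 for Casp4, -0.046 to 0.11 for Gsdmd and -0.19 to 0.077 for Pycard. In IL-4 it ranged from -0.15 to 0.22 for Casp4, -0.40 to 0.037 for Il18, -0.13 to 0.036 for Nlrc4 and -0.64 to 0.039 for Nlrp3. Casp1 in IL-4 against M-CSF in p110g-/- ranged from -0.11 to 0.0022, and Pik3cg in IFNg/LPS against M-CSF in p110g-/- from -0.21 to 0.48. Interactions ranged from -0.27 to 0.15 for Casp4, -0.55 to 0.13 for Nlrp3 and -0.25 to 0.018 for Pycard with IL-4, and from -0.32 to 0.0097 for Il18 with IFNg/LPS. With numbers 2 and 3 only, Pycard was at 0.016 in M-CSF and Nlrc4 at 0.10 in IL-4 between genotypes, Nlrc4 at 0.058 in the IL-4 interaction, Aim2 at 0.00065 in IL-4 against M-CSF in p110g-/-, and Pik3cg at -0.24 in IFNg/LPS against M-CSF in p110g-/-. With DESeq2 and with edgeR Casp4 was at -0.010 between genotypes in IL-4.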
